A study of Arabidopsis thaliana with 12 samples.

Results

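The genotype by organ interaction is the effect of the psp1 mutation in roots minus its effect in the aerial part, gene by gene. It was measured in Arabidopsis thaliana plants of the Columbia ecotype, and its members are all 12 RNA-seq libraries of the series, chosen by genotype and organ, out of 12 in all. There were 3 libraries of psp1 roots, 3 of WT roots, 3 of psp1 aerial parts and 3 of WT aerial parts. The psp1 plants are mutants of phosphoserine phosphatase, and WT is the wild type. All of them were raised in long days on vertical plates of diluted Murashige and Skoog agar, and were harvested as the night ended. The age of the plants, the psp1 allele and how it was made are not given in the labels used here. The replicates are described as independent biological samples. The unit of measurement was the estimated read count per gene, scaled here to library size (CPM). A psp1 effect below is the log2 fold change of the libraries labelled psp1 over WT, and an interaction is the root effect minus the aerial effect, so a positive interaction means a higher psp1 effect in roots.

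Plants make serine by photorespiration in green tissue and, in plastids, by the phosphorylated pathway, whose last step is catalysed by phosphoserine phosphatase. Serine is the carbon backbone of cysteine, and cysteine carries reduced sulfur into methionine, glutathione and glucosinolates, the sulfur-rich defence compounds of the cabbage family. Roots take up sulfate, nitrate, phosphate and iron, while most reduction of sulfate and nitrate in many plants takes place in leaves, so that the organs depend on each other through xylem and phloem transport. The series links a defect in that pathway to sulfur assimilation in its title, and the comparison made here asks which genes answered differently in the 2 organs.

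PSP1, the targeted gene, went against the label in the aerial part and is itself one of the genes with an interaction. PSP1 (AT1G18640; TAIR10.1 chromosome 1, 6416169 to 6418693) had 92.1, 96.0 and 118 CPM in roots labelled psp1 and 146, 135 and 123 CPM in WT roots. In the aerial part it had 462, 351 and 274 CPM in libraries labelled psp1 and 94.2, 81.1 and 62.5 CPM in WT. All 3 psp1 libraries therefore lay below WT in roots and far above WT in the aerial part, with an interaction of -2.60 ± 0.26 (SE; adjusted p = 9.64e-06). The root difference on its own did not pass the test (log2 -0.40, adjusted p = 0.131), and the aerial one did (log2 2.19, adjusted p = 1.84e-06). PSP1 overlaps a gene on the opposite strand over 291 bases, and whether reads were counted by strand is not given in the sources used here. The libraries are therefore called the libraries labelled psp1, and every direction below rests on those labels.

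Total estimated counts ran from 3627193 to 5873935 in the libraries labelled psp1 and from 7302386 to 9590308 in WT, so depth separated the genotypes in both organs. The biological coefficient of variation within a group was 20.09% in psp1 roots and 15.32% in WT roots, and it was 28.72% in psp1 aerial parts and 11.45% in WT aerial parts. Organ labels held against markers: 10 leaf genes summed to 511.7 to 750.9 TPM, the deposited length-scaled unit, in psp1 roots and 901 to 927.5 TPM in WT roots. In aerial parts they summed to 38860 to 46520 TPM in psp1 and 48590 to 54470 TPM in WT. The 12 root genes summed to 2124 to 2972 TPM in psp1 roots and 3020 to 3534 TPM in WT roots. PYK10 made up most of that sum, with 1951 to 2766 TPM in psp1 roots and 2821 to 3339 TPM in WT roots. Of the 12, the psp1 root libraries were all above WT in 4 (EXPA7, LRX1, MYB36 and NRT2.1), all below WT in 2 (PYK10 and TIP2;3), and overlapped WT in 6. NRT2.1 had 13.1 to 19.3 TPM in psp1 roots and 1.29 to 2.21 TPM in WT roots. The 12 genes summed to 166.5 to 183.5 TPM in psp1 aerial parts and 170.5 to 201.7 TPM in WT aerial parts, where 3 to 7 of them were at 0. Flower markers reached at most 6.49 TPM and all 9 seed markers were at 0 in every library. Leaf markers summed to less in the libraries labelled psp1 than in WT in both organs, but not gene by gene. In the aerial part all psp1 libraries lay below WT for LHCB3, LHCA1, LHCA3 and RCA, and overlapped WT for the other leaf genes. In roots they lay below WT for LHCB1.3, LHCB3, LHCA1, LHCA3 and SBPASE, and overlapped WT for the others. The part of leaf markers in the results was not tested. In whole organs, fewer cells of a type and less RNA per cell cannot be told apart.

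By edgeR the psp1 effect differed between the organs in 315 genes, and most of those were called in roots. Of 18759 genes tested, 153 (0.816%) had a higher psp1 effect in roots and 162 (0.864%) a lower one, at an adjusted p under 0.01 (edgeR quasi-likelihood test, Benjamini-Hochberg over all genes). DESeq2 called 828, of which 331 were higher and 497 lower, and 3704 genes had an unadjusted p under 0.05 in edgeR, so the number of genes depends on the test. With size factors of another method (RLE), 143 were higher and 234 lower. The median interaction was 0.083 over all genes, 1.85 over the genes called higher and -1.39 over those called lower. In the same model, 1832 genes (9.77%) were called for psp1 in roots, 4.45% of all tested up and 5.32% down. In the aerial part 141 genes (0.752%) were called, 0.384% up and 0.368% down. Without 1 WT aerial library the count of interactions fell to 170, 136 or 194 (without library 1, 2 or 3), and that in the aerial part to 46, 43 or 40. Calls of a higher effect numbered 84, 81 or 105 in those fits and 87 to 116 when 1 root library was left out, and calls of a lower effect 86, 55 or 89 without 1 WT aerial library. Leaving out psp1 aerial library 2 gave 92 calls in the aerial part, and leaving out WT root library 1 or 3 gave 1207 or 1063 calls in roots. An effect missing from the aerial calls is therefore not shown to be absent there, and each statement of a difference below comes from the interaction itself.

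The 315 interactions fell into a few shapes, set by the calls in each organ. These shapes were not counted again in the other fits, in which the number of aerial calls changed. In 129 genes the effect was called up in roots and not called in the aerial part, and in 141 it was called down in roots and not called in the aerial part. Effects were called in opposite directions in 10 genes, 8 of them up in roots and down in the aerial part. Another 14 were called in the aerial part alone and 7 were called the same way in both organs but by different amounts. The remaining 14 were called in neither organ on its own. Of the 315, 302 had a mean of at least 10 counts in at least 1 genotype of each organ. Among those 302, the 3 psp1 and 3 WT libraries did not overlap in roots in 294 genes and in the aerial part in 151. The shares over all genes tested were 38.5% and 23.1%. The 302 were picked by a test on these same libraries, so their separation is a description and no added support. Across the 15525 genes detected in both organs, the root and aerial effects had a Pearson r of 0.248 and a Spearman rho of 0.220, given as a description across genes, which share libraries and are not independent.

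**Figure D1:**
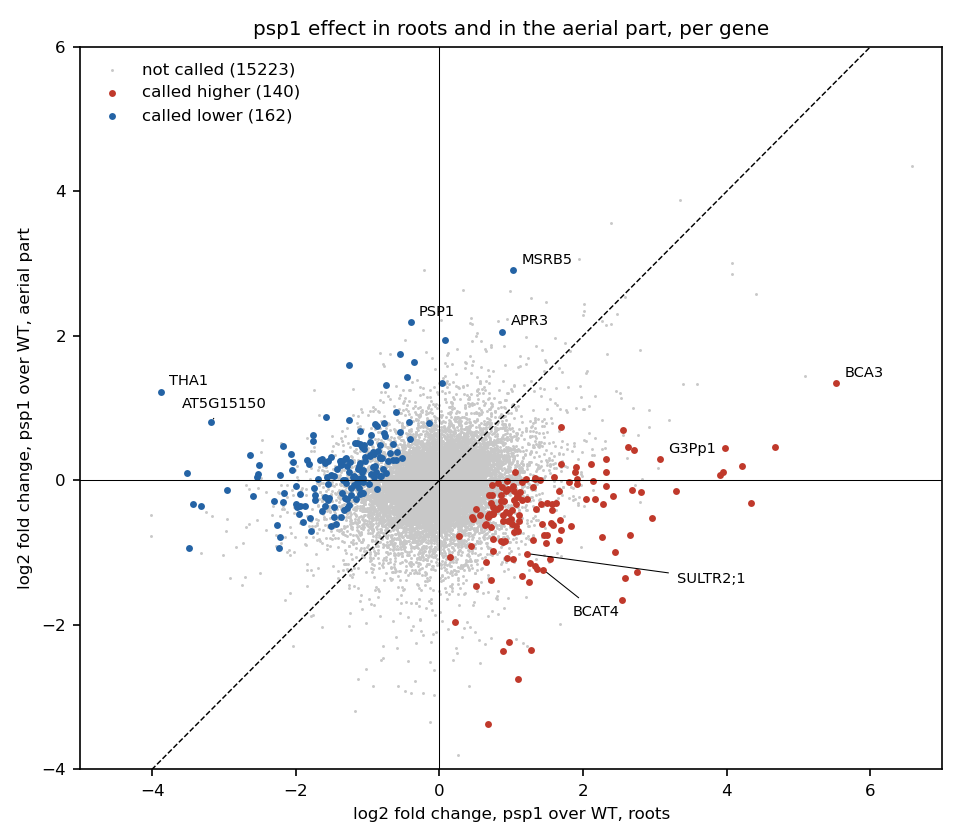
Each point is a gene detected in both organs, placed by its log2 fold change of libraries labelled psp1 over WT in roots (horizontal) and in the aerial part (vertical). The 140 genes called higher lie below the dashed line of equal effects and the 162 called lower above it, while 15223 genes were not called and 6 genes fall outside the axes.

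There were 8 genes that rose in roots and fell in the aerial part: 4 of the aliphatic glucosinolate list (BCAT4, IMD1, CYP83A1 and MAM1), SULTR2;1, MS2, and AK3 and DJ1F, which are in no list. BCAT4, the aminotransferase that takes methionine into glucosinolate chain elongation (AT3G19710; TAIR10.1 chromosome 3, 6846969 to 6849582), had 301, 323 and 356 CPM in psp1 roots and 123, 116 and 120 CPM in WT roots. In the aerial part BCAT4 had 20.0, 30.4 and 19.6 CPM in psp1 and 56.8, 58.1 and 49.0 CPM in WT. Neither organ's groups overlapped, and the order of the genotypes was turned round between the organs: the root effect was 1.45, the aerial effect -1.24 and the interaction 2.69 ± 0.22 (adjusted p = 9.18e-07). AK3, an aspartate kinase at the head of the branch that leads to methionine and threonine (AT3G02020), had 259.9, 271 and 265 CPM in psp1 roots and 86.8, 95.2 and 91.1 CPM in WT roots. Its aerial values were 31.8, 47.9 and 47.8 CPM in psp1 and 82.9, 87.8 and 98.8 CPM in WT, again with no overlap, and its interaction was 2.63 ± 0.21 (adjusted p = 8.94e-07). The annotated span of AK3 overlaps a gene of the opposite strand over 2537 bases, and that of BCAT4 over 307 bases. Overlap of the coding sequences was not measured, so whether their counts hold reads of those partners is not known.

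SULTR2;1, the low-affinity sulfate transporter of the vascular tissue that serves root-to-shoot transfer (AT5G10180; TAIR10.1 chromosome 5, 3193017 to 3197136), had 129, 129.8 and 126 CPM in psp1 roots and 67.5, 48.6 and 49.4 CPM in WT roots. In the aerial part it had 82.1, 75.5 and 83.6 CPM in psp1 and 169.7, 156 and 161 CPM in WT. The psp1 libraries were thus all above WT in roots and all below WT in the aerial part, and the interaction was 2.23 ± 0.19 (adjusted p = 2.35e-06). MS2, a methionine synthase (AT3G03780), had 558, 506 and 596 CPM in psp1 roots and 301, 298 and 282 CPM in WT roots. MS2 had 70.4, 75.8 and 52.2 CPM in psp1 aerial parts and 124, 112 and 119 CPM in WT aerial parts. The interaction of MS2 was 1.75 ± 0.19 (adjusted p = 2.51e-05), with groups apart in both organs. IMD1, the isopropylmalate dehydrogenase of methionine chain elongation (AT5G14200), had root means of 276 ± 9.81 CPM in psp1 and 115 ± 14.7 CPM in WT (SD, n = 3 each). Its aerial means were 21.3 ± 3.27 CPM in psp1 and 46.7 ± 8.25 CPM in WT, and its interaction 2.41 ± 0.22 (adjusted p = 4.3e-06). IMD1 and IMD3 are 94.3% identical over 1217 bases, so the division of reads between them is uncertain. The other members of this shape were CYP83A1 (2.01 ± 0.21), MAM1 (1.55 ± 0.20) and DJ1F (1.73 ± 0.18), the first 2 being glucosinolate genes. They lie outside the rule for naming genes and were named because the shape holds 8 genes.

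The opposite shape held 2 genes. THA1, a threonine aldolase that cleaves threonine to glycine and acetaldehyde (AT1G08630; TAIR10.1 chromosome 1, 2743761 to 2747967), had 1.93, 0.641 and 0.581 CPM in psp1 roots and 22.1, 11.7 and 16.7 CPM in WT roots. In the aerial part THA1 had 169.8, 133 and 170.2 CPM in psp1 and 92.7, 57.2 and 51.9 CPM in WT. It was close to 0 in psp1 roots, and in the aerial part every psp1 library lay above every WT one. Its aerial rise was only just called (adjusted p = 0.00959). The interaction of THA1 was -5.11 ± 0.46 (adjusted p = 3.77e-06). AT1G65970, annotated as thioredoxin-dependent peroxidase 2, had 132, 96.3 and 138 CPM in psp1 roots and 175, 218 and 219 CPM in WT roots. AT1G65970 had 58.7, 35.3 and 38.2 CPM in psp1 aerial parts and 21.2, 17.0 and 14.9 CPM in WT aerial parts. Its interaction was -2.07 ± 0.28 (adjusted p = 0.0003), but a copy with 96.3% identity and another with 91.6% could share its reads, and it overlaps a gene of the opposite strand over 359 bases, so the gene behind this change is uncertain.

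**Figure D2:**
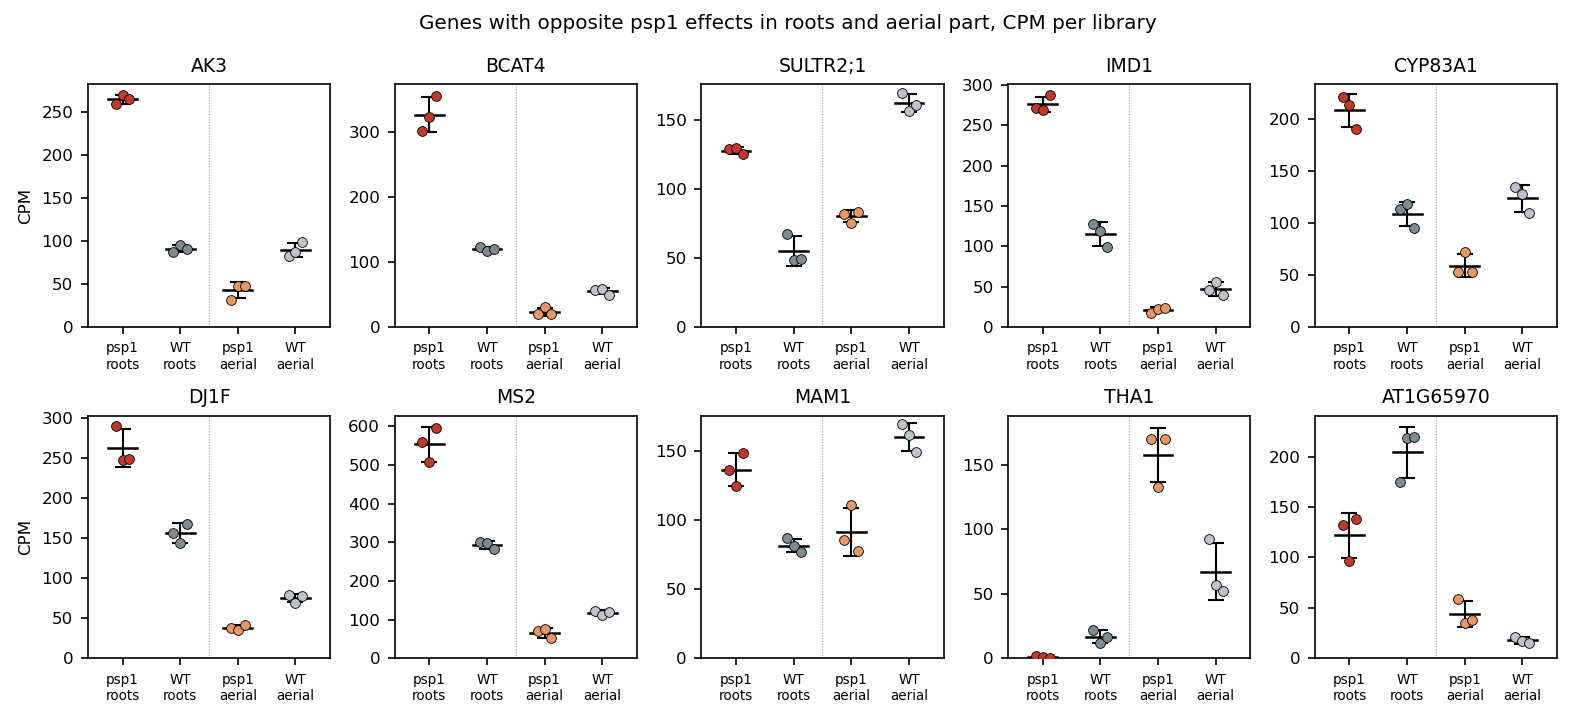
CPM of the 10 genes whose psp1 effect was called in opposite directions, 1 point per library, with the mean and SD of 3 libraries; psp1 stands left of WT within each organ. In AK3 to MAM1 the psp1 points lie above WT in roots and below WT in the aerial part, and in THA1 and AT1G65970 the order is the reverse.

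Because these genes changed direction between organs, the sequence before their starts is shown for BCAT4, SULTR2;1 and THA1, together with G3Pp1, a gene with a large root effect described further on. Each line is the 250 bases before the annotated gene start in the RefSeq TAIR10.1 assembly, read 5′ to 3′ on the gene's strand, and capitals mark matches to 4 motifs on either strand. The motifs were P1BS (GNATATNC), bound by phosphate starvation factors, the core of the sulfur-responsive element SURE (GAGAC), the W-box core (TTGAC) and the G-box (CACGTG).
BCAT4 (chr3:6849583-6849832, minus strand): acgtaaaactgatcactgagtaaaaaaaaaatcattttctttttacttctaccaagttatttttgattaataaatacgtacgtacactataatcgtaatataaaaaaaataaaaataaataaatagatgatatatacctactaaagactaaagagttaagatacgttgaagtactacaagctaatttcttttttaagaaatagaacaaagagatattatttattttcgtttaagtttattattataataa
SULTR2;1 (chr5:3192767-3193016, plus strand): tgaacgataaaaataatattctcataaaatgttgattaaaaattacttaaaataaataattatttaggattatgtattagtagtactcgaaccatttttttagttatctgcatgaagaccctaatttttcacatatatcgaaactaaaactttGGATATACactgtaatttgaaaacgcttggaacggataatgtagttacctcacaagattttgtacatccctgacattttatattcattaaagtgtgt
G3Pp1 (chr3:17475275-17475524, minus strand): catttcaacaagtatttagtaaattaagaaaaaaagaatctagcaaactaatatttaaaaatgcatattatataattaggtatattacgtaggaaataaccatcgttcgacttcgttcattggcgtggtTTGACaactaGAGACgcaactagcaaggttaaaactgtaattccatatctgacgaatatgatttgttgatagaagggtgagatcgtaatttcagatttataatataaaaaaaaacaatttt
THA1 (chr1:2747968-2748217, minus strand): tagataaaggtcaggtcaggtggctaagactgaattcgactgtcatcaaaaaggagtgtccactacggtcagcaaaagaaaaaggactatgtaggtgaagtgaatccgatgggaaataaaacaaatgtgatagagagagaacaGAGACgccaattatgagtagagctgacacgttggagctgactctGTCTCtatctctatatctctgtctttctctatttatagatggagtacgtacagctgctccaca
The BCAT4 window held none of the 4 motifs. SULTR2;1 held a P1BS match that begins 97 bases before the start, G3Pp1 a W-box and a SURE core, and THA1 a SURE core on each strand. Matches of such short motifs are common: P1BS was in 5.45% of 26713 windows of this length, the SURE core in 25.7%, the W-box core in 45% and the G-box in 6.58%. Among the genes called higher the shares were 7.84% for P1BS, 22.9% for SURE, 53.6% for the W-box and 6.54% for the G-box. Among those called lower they were 6.21% for P1BS, 24.2% for SURE, 41.6% for the W-box and 8.7% for the G-box. A match is a description of the letters and not a binding site.

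Aliphatic glucosinolate genes, which build the methionine-derived side of this defence, had the most members with an interaction of the 30 gene lists described. Of 24 members tested, 18 (75%) were called higher and none lower, against 1.68% of all genes in either direction, and the median interaction was 2.00. The count lay between 14 and 19 and the median between 1.83 and 2.15 over 23 other fits. The lists were chosen with earlier results of these data known, so the count, like those of the lists below, is a description. The median effect was 1.06 in roots and -0.785 in the aerial part: 14 members were called up in roots, 6 were called down in the aerial part, and none was called the other way in either organ. Without 1 library the count was lowest, at 14, without WT aerial library 1. For the lists below, the shares over all genes tested were 0.816% called higher and 0.864% called lower for the interaction. In roots 4.45% of all genes were called up, and in the aerial part 0.384%.

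Calls were spread from regulators to side-chain oxidation. Of the regulators, MYB28 had 49.4, 47.3 and 49.0 CPM in psp1 roots and 26.4, 23.5 and 22.3 CPM in WT roots. MYB28 had 31.9, 28.9 and 32.3 CPM in psp1 aerial parts and 40.3, 43.4 and 40.6 CPM in WT aerial parts. Its psp1 and WT libraries were apart in both organs and in opposite orders, and its interaction was 1.43 ± 0.21 (adjusted p = 0.000566). MYB29 was at or near 0 in every root library and was not called (adjusted p = 0.271). In chain elongation, besides BCAT4 and IMD1, MAM1 and MAM3 (methylthioalkylmalate synthases), IIL1 and IPMI2 (large and small subunits of isopropylmalate isomerase), IPMI1 and BCAT3 were called, and BAT5, the plastid carrier of the intermediates, was not (1.99 ± 0.44, adjusted p = 0.0131). MAM3 had 719.9, 749 and 543 CPM in psp1 roots and 417, 439 and 564 CPM in WT roots, which overlapped. MAM3 had 15.9, 4.91 and 9.94 CPM in psp1 aerial parts and 25.5, 28.8 and 34.6 CPM in WT aerial parts, which were apart, so its interaction (1.97 ± 0.34) came with a called fall in the aerial part alone. The call of MAM3 was lost in limma-voom with group weights (adjusted p = 0.0248). That of BCAT3 was lost without psp1 root library 1 or 2, WT root library 1, 2 or 3, psp1 aerial library 2, or WT aerial library 1 or 2 (adjusted p 0.0101 to 0.0273) and also at equal depth (0.0142), with every library thinned to the smallest total.

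In the core pathway, CYP79F2, which turns elongated methionine into aldoximes, had 198, 179 and 227 CPM in psp1 roots and 66.0, 80.2 and 66.3 CPM in WT roots. Its aerial level was low, at 5.95, 4.60 and 4.04 CPM in psp1 and 8.97, 8.19 and 8.15 CPM in WT. CYP79F1, its neighbour and 92.0% identical to it over 1585 bases, was read mostly in the aerial part, and the division of reads between the pair is uncertain, above all in roots, where CYP79F2 is far higher. CYP79F1 had 2.48, 0.801 and 3.87 CPM in psp1 roots and 0.235, 0 and 0.727 CPM in WT roots, and it had 47.2, 46.0 and 18.6 CPM in psp1 aerial parts and 88.8, 89.5 and 95.2 CPM in WT aerial parts. Both had a positive interaction, 2.26 ± 0.26 (adjusted p = 5.10e-05) and 4.02 ± 0.78 (adjusted p = 0.00562). That of CYP79F1 rests on few root counts, and its call was lost without psp1 root library 1 or 3, WT root library 1 or 2, or WT aerial library 1, 2 or 3 (adjusted p 0.0123 to 0.0265) and also in limma-voom (0.0148), with robust quasi-likelihood (0.0118) and at equal depth (0.0157). CYP83A1, the next enzyme, had means of 209 ± 16.1 CPM in psp1 roots and 109 ± 11.8 CPM in WT roots, and of 59.1 ± 11 CPM in psp1 aerial parts and 124 ± 13.0 CPM in WT aerial parts (SD, n = 3 each). GSTU20, the glucosyltransferase gene AT2G31790 and the sulfotransferase SOT17 were also called (2.29 ± 0.32, 1.62 ± 0.22 and 1.59 ± 0.29). The call of SOT17 was lost without psp1 root library 1 or 2, WT root library 1, 2 or 3, or WT aerial library 1 or 3 (adjusted p 0.0104 to 0.0188) and also in limma-voom (0.0106). SOT18, a sulfotransferase of the same step, had an interaction of 0.19 ± 0.27 (adjusted p = 0.759) and GSTF11, below 7 CPM in every library, was not called.

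Among the flavin monooxygenases that oxidise the side chain, the interaction was uneven. FMOGS-OX1 had 5.52, 3.36 and 5.62 CPM in psp1 roots and 0.587, 0.845 and 0.909 CPM in WT roots. FMOGS-OX1 had 5.36, 3.68 and 5.59 CPM in psp1 aerial parts and 9.69, 16.8 and 11 CPM in WT aerial parts, with an interaction of 3.93 ± 0.54 (adjusted p = 0.000355). FMOGS-OX3 (2.36 ± 0.37) and FMOGS-OX5 (1.70 ± 0.33) were called too. The call of FMOGS-OX5, which overlaps a gene of the opposite strand over 1066 bases, was kept only without psp1 aerial library 2 or 3 when single libraries were left out (adjusted p otherwise 0.0127 to 0.0246), and was lost at equal depth (0.0185). FMOGS-OX2 and FMOGS-OX4 had interactions of -0.09 ± 0.65 and 0.09 ± 0.31 and were not called.

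**Figure D3:**
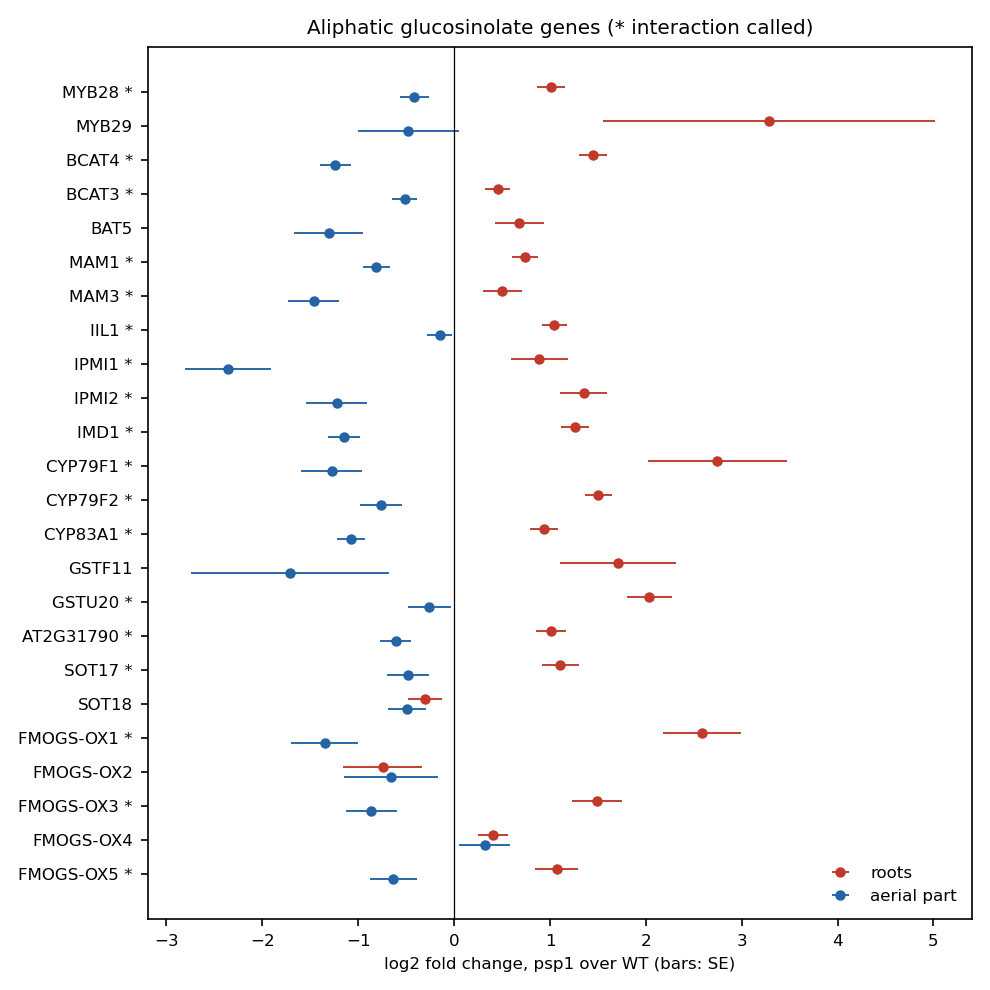
Log2 fold changes of libraries labelled psp1 over WT (points, with SE) in roots (red) and in the aerial part (blue) for the 24 aliphatic glucosinolate genes tested, in pathway order from regulators to side-chain oxidation. An asterisk marks the 18 genes whose interaction was called; in all of these the root point lies right of 0 and the aerial point left of it.

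Genes of indolic glucosinolates and those shared by both branches did not move as a block: 2 of 17 were called higher, 2 lower, and the median was 0.151. The shared enzymes SUR1, a carbon-sulfur lyase (1.25 ± 0.22), and UGT74B1, a glucosyltransferase (0.94 ± 0.19), were higher, while the indole genes CYP79B3, which makes indole-3-acetaldoxime (-0.84 ± 0.16), and IGMT1, an indole glucosinolate methyltransferase (-1.58 ± 0.23), were lower. The call of SUR1 was lost without psp1 root library 1 or 3, WT root library 2 or 3, or WT aerial library 1 or 2 (adjusted p 0.0101 to 0.0175) and also at equal depth (0.0114). That of UGT74B1 was kept only without psp1 aerial library 1 when single libraries were left out (adjusted p otherwise 0.0107 to 0.0302), and was lost at equal depth (0.0137). That of CYP79B3 was lost without psp1 aerial library 2, or WT aerial library 1, 2 or 3 (adjusted p 0.0106 to 0.0256). CYP79B3 fell in both organs and more in roots, with 84.8, 86.3 and 87.5 CPM in psp1 roots and 225, 235 and 245 CPM in WT roots. CYP79B3 had 90.08, 99.4 and 106 CPM in psp1 aerial parts and 147, 143 and 161 CPM in WT aerial parts. IGMT1 had 66.8, 66.8 and 75.1 CPM in psp1 roots and 119.9, 161 and 124 CPM in WT roots. IGMT1 had 34.1, 32.8 and 25.8 CPM in psp1 aerial parts and 20.7, 22.0 and 17.5 CPM in WT aerial parts. IGMT1 has near copies, so its share of the reads is uncertain. By edgeR none of 10 tryptophan synthesis genes and none of 11 myrosinase and specifier genes were called, with 4 and 2 at an unadjusted p under 0.05. Over all 18759 genes tested, 3704 had such a p.

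Most sulfur deficiency genes rose in roots, many also rose in the aerial part, and few had an interaction. Of 14 tested, 12 were called up in roots and 7 in the aerial part, while the interaction was called higher in 2 (SULTR2;1 and APR2) and lower in 1 (APR3), with a median interaction of -0.0454. Of the 14, 10 had a mean of at least 10 counts in at least 1 genotype of each organ. SDI1, a repressor of glucosinolate synthesis induced by low sulfur, had 32.7, 38.9 and 49.2 CPM in psp1 roots and 0.587, 0.188 and 0.454 CPM in WT roots. In the aerial part SDI1 had 17.9, 22.7 and 20.5 CPM in psp1 and 0.855, 0.910 and 1.19 CPM in WT. Both organs showed psp1 libraries far above WT, and the interaction was 2.24 ± 0.55 with an adjusted p of 0.0232, short of the threshold. Over 23 alternative fits the SDI1 interaction ran from 1.45 to 2.4, and it was called in 1 of them. WT values were near 1 CPM or below, so the size of each fold is poorly fixed.

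The 3 APS reductases, which carry out the first reduction of sulfate and are the control point of the pathway, rose in both organs, and 2 of them had an interaction. APR1 had 357, 342 and 431 CPM in psp1 roots and 77.3, 79.6 and 68.6 CPM in WT roots. APR1 had 64.9, 93.9 and 80.5 CPM in psp1 aerial parts and 17.5, 22.1 and 14.1 CPM in WT aerial parts. APR1 was not called for the interaction: its effects were 2.33 in roots and 2.14 in the aerial part, and the 95% interval of their difference ran from -0.32 to 0.68. APR2 had 167, 176 and 157 CPM in psp1 roots and 49.7, 54.7 and 50.2 CPM in WT roots. APR2 had 541, 609.8 and 561 CPM in psp1 aerial parts and 345, 359.9 and 324 CPM in WT aerial parts. The rise of APR2 was larger in roots by 0.96 ± 0.16 (adjusted p = 0.00174). APR3 had 244, 217 and 368 CPM in psp1 roots and 140.1, 144 and 167 CPM in WT roots. APR3 had 210.5, 226 and 245 CPM in psp1 aerial parts and 52.0, 54.3 and 57.4 CPM in WT aerial parts, so that its rise was smaller in roots (-1.18 ± 0.23, adjusted p = 0.00571). Neither call was firm. That of APR2 was lost without psp1 root library 1 or 2, or WT root library 1 or 3 (adjusted p 0.012 to 0.0156). That of APR3 was lost without psp1 root library 1, WT root library 3, psp1 aerial library 2 or 3, or WT aerial library 1, 2 or 3 (adjusted p 0.0107 to 0.0212).

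Further along sulfur metabolism the interaction was rare. None of 18 genes of sulfate reduction and cysteine synthesis and none of 7 other sulfate transporters were called by edgeR. In these lists 5 and 4 genes had an unadjusted p under 0.05, and DESeq2 called 2 and 1. Over all 18759 genes tested, 3704 had such a p and DESeq2 called 828. In the methionine and methyl cycle, MS2 and MAT3, an S-adenosylmethionine synthetase, were called of 19, and the median was 0.617; the call of MAT3 (0.90 ± 0.16) was lost without psp1 root library 1, 2 or 3, WT root library 2 or 3, or WT aerial library 1 or 2 (adjusted p 0.0101 to 0.0211). Of 18 genes of glutathione and its transferases, 15 had a negative interaction, and 2 were called lower, GSTU19 and GSTF2. GSTU19, a glutathione transferase of the tau class, had 2881, 1748 and 4816 CPM in psp1 roots and 15000, 10750 and 13730 CPM in WT roots. GSTU19 had 2948, 2488 and 2060 CPM in psp1 aerial parts and 2251, 1636 and 1938 CPM in WT aerial parts. It fell in roots, where the groups were apart, and the interaction was -2.43 ± 0.36 (adjusted p = 0.000647). GSTF2 had 639.5, 466 and 503 CPM in psp1 aerial parts and 271, 312 and 349.6 CPM in WT aerial parts, and its root means were 255 ± 19.6 CPM in psp1 and 283 ± 9.46 CPM in WT (SD, n = 3 each). The interaction of GSTF2 (-0.94 ± 0.19) was lost without psp1 aerial library 1, or WT aerial library 1 or 2 (adjusted p 0.0135 to 0.0314). GSTF2 is 94.5% identical to GSTF3 and overlaps a gene of the opposite strand over 1442 bases. MSRB5, a methionine sulfoxide reductase, rose in both organs and more in the aerial part, with 403, 313 and 343 CPM in psp1 roots and 154, 236 and 129.7 CPM in WT roots. MSRB5 had 72.2, 55.5 and 55.6 CPM in psp1 aerial parts and 9.83, 4.55 and 10.2 CPM in WT aerial parts. Its interaction was -1.88 ± 0.34 (adjusted p = 0.00323), and it was the single call among 9 genes of that family. The call of MSRB5 was lost without WT aerial library 2 (adjusted p = 0.0113) and also in limma-voom (0.0122), which leaves no call among the 9.

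Apart from PSP1, no gene of the phosphorylated serine pathway had an interaction that passed the test. PSAT1, the phosphoserine aminotransferase, had 148, 155 and 159 CPM in psp1 roots and 78.0, 87.5 and 94.4 CPM in WT roots. Its aerial means were 23.9 ± 6.52 CPM in psp1 and 19.0 ± 2.63 CPM in WT (SD, n = 3 each). It rose in roots (log2 0.83, adjusted p = 0.00118), and the 95% interval of its interaction ran from -0.01 to 1.00. PGDH1, PGDH2 and PGDH3, the phosphoglycerate dehydrogenases of the first step, had interactions of 0.33 ± 0.25, -0.32 ± 0.24 and -0.44 ± 0.56, and PSAT2 had 0.64 ± 0.59. PGDH2 is identical over 425 bases to a neighbouring locus, and PGDH3 was below 1 CPM in every root library.

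**Figure D4:**
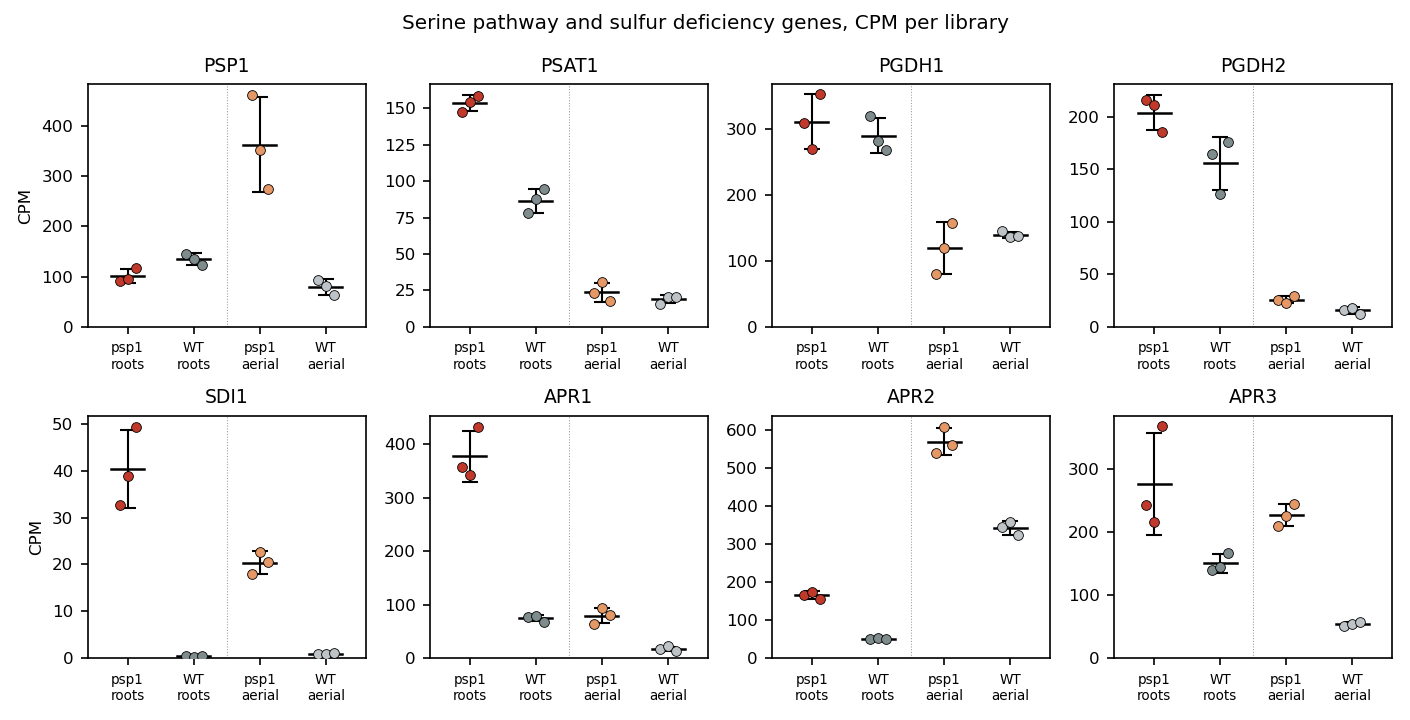
CPM per library, with the mean and SD of 3 libraries, for PSP1, 3 other genes of the phosphorylated serine pathway and 4 sulfur deficiency genes; psp1 stands left of WT within each organ. PSP1 is higher in psp1 than in WT in the aerial part alone, and SDI1, APR1, APR2 and APR3 are higher in psp1 in both organs.

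Nitrogen uptake and assimilation was the list with the next highest number of calls: 7 of 23 genes were called higher and 1 lower, with a median of 0.852. GLN1;2, a cytosolic glutamine synthetase, had 1811, 1787 and 1323 CPM in psp1 roots and 319, 362 and 238 CPM in WT roots. GLN1;2 had 709, 752 and 690.2 CPM in psp1 aerial parts and 889.5, 933 and 687 CPM in WT aerial parts. Its groups were apart in roots and overlapped in the aerial part, and the interaction was 2.64 ± 0.23 (adjusted p = 2.96e-06). NRT1.1, the dual-affinity nitrate transporter and nitrate sensor, had 305, 266 and 266 CPM in psp1 roots and 93.0, 77.8 and 92.9 CPM in WT roots. NRT1.1 had 44.2, 51.2 and 53.4 CPM in psp1 aerial parts and 54.0, 56.0 and 54.6 CPM in WT aerial parts. The interaction of NRT1.1 was 1.82 ± 0.18 (adjusted p = 1.13e-05). Both nitrate reductases, NIA1 (1.17 ± 0.16) and NIA2 (1.33 ± 0.18), the nitrite reductase NIR1 (1.1 ± 0.19) and the glutamate synthases GLU2 (1.14 ± 0.16) and GLT1 (0.79 ± 0.15) were called higher, each with a called rise in roots and no call in the aerial part. The call of NIR1 was lost without psp1 root library 1, 2 or 3, or WT root library 1, 2 or 3 (adjusted p 0.0115 to 0.0208). That of GLT1 was kept only without psp1 aerial library 1, 2 or 3 when single libraries were left out (adjusted p otherwise 0.0102 to 0.0387), and was lost with a stricter filter (0.0116). GDH1, a glutamate dehydrogenase that releases ammonium, was the exception: it had 143, 146 and 198 CPM in psp1 roots and 456, 386 and 353 CPM in WT roots. GDH1 had 316, 310 and 323 CPM in psp1 aerial parts and 279, 262 and 227 CPM in WT aerial parts (-1.60 ± 0.20, adjusted p = 0.000168).

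Of 14 amino acid transporter genes tested, 2 were called higher (AAP1 and AAP2) and 1 lower (UMAMIT20), and the median interaction was 0.689. AAP1, an uptake permease, had 29.9, 33.5 and 29.2 CPM in psp1 roots and 6.81, 7.33 and 4.91 CPM in WT roots. AAP1 had 26.8, 37.1 and 41.0 CPM in psp1 aerial parts and 44.3, 46.1 and 40.6 CPM in WT aerial parts. The root groups were far apart, with an interaction of 2.62 ± 0.28 (adjusted p = 2.45e-05), and AAP2, a phloem loading permease, was also called higher (1.12 ± 0.19; adjusted p 0.0101 without WT root library 2). UMAMIT20, of a family of amino acid exporters, had 70.2, 75.6 and 44.5 CPM in psp1 roots and 259, 243 and 356 CPM in WT roots. UMAMIT20 had 22.8, 22.4 and 37.3 CPM in psp1 aerial parts and 35.9, 26.5 and 29.5 CPM in WT aerial parts (-2.00 ± 0.31, adjusted p = 0.00105). UMAMIT36, of the same family but outside the list, was called higher, with 12.4, 11.2 and 13.6 CPM in psp1 roots and 0.705, 0.470 and 0.273 CPM in WT roots (4.21 ± 0.65, adjusted p = 0.000912). Its aerial mean was 8 counts in psp1 and 10 counts in WT, so its aerial effect rests on few counts. UMAMIT17, also outside the list, which adjoins UMAMIT20 by its locus number and was named after its values were seen, had an interaction of -2.62 ± 0.28.

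Phosphate starvation genes were called up in roots in 15 of 22 cases, against 4.45% of all genes tested. The interaction was called higher in 3 of the 22, against 0.816% of all genes (median interaction 1.14). Only 14 of the 22 had a mean of at least 10 counts in at least 1 genotype of each organ. G3Pp1, a glycerol-3-phosphate permease (AT3G47420; TAIR10.1 chromosome 3, 17472297 to 17475274), had 208, 199.6 and 265 CPM in psp1 roots and 27.9, 25.6 and 26.6 CPM in WT roots. G3Pp1 had 300.4, 244 and 249 CPM in psp1 aerial parts and 199, 222 and 226 CPM in WT aerial parts. With 2.77 ± 0.19 (adjusted p = 2.32e-07) it had one of the smallest p of all genes, and its psp1 libraries lay above WT in both organs. PHT1;4, a high-affinity phosphate transporter, had 195, 185 and 216 CPM in psp1 roots and 24.2, 35.4 and 36.8 CPM in WT roots. PHT1;4 had 6.15, 4.91 and 4.97 CPM in psp1 aerial parts and 4.56, 3.03 and 4.24 CPM in WT aerial parts (2.17 ± 0.32, adjusted p = 0.000556; 0.0208 in limma-voom). SQD2, which makes sulfolipid in place of phospholipid, was called too (1.29 ± 0.20). SPX1 and PAP17, markers of phosphate starvation that rose in both organs, had interactions of 1.06 ± 0.43 (adjusted p = 0.165) and 0.23 ± 0.37 (adjusted p = 0.798). Of 25 iron deficiency genes, 14 reached that mean in both organs. Among the 25, OPT3, a transporter that loads iron into the phloem (1.71 ± 0.24, adjusted p = 0.000495), was called higher and the ferritin FER4 (-1.54 ± 0.32) lower. The model also called FRO2, the root iron reductase, which averaged under 10 counts in both genotypes of the aerial part. It had 35.3, 33.3 and 37.2 CPM in psp1 roots and 10.4, 8.36 and 9.81 CPM in WT roots, and with no aerial effect measured it does not show a difference between the organs. The call of FER4 was kept only without psp1 root library 3, or WT root library 2 or 3 when single libraries were left out (adjusted p otherwise 0.0121 to 0.0344), and was lost in limma-voom (0.0267).

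Phenylpropanoid genes, which lead to lignin and flavonoids, had 6 of 16 members called higher and none lower (median 0.771). PAL1, the phenylalanine ammonia-lyase of the entry step, had 597, 596 and 731 CPM in psp1 roots and 348, 376 and 318 CPM in WT roots. PAL1 had 102, 129 and 95.4 CPM in psp1 aerial parts and 152, 164 and 165 CPM in WT aerial parts. The psp1 libraries were above WT in roots and below WT in the aerial part (1.45 ± 0.19, adjusted p = 0.000254), though the aerial difference was not called. The ligase 4CL1 (1.47 ± 0.21, adjusted p = 0.000447), PAL2 (1.05 ± 0.16), OMT1 (1.3 ± 0.21), FAH1 (1.97 ± 0.35) and CAD4 (1.2 ± 0.22) were the other calls. That of FAH1 was lost without psp1 root library 1 or 2, WT root library 1 or 3, or WT aerial library 1, 2 or 3 (adjusted p 0.0101 to 0.0184). That of CAD4 was lost without psp1 root library 1, 2 or 3, WT root library 1 or 2, or WT aerial library 2 (adjusted p 0.0127 to 0.0292). Of 12 flavonoid genes, F3H (2.14 ± 0.40) and FLS1 (2.3 ± 0.44) were called higher, and none was called without WT aerial library 1 or 2, WT root library 1 or 3, or psp1 root library 1 or 2. The call of FLS1 was also lost without psp1 aerial library 1 or psp1 root library 3, and its lost calls had an adjusted p of 0.0109 to 0.0221, against 0.0103 to 0.0187 for F3H.

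Jasmonate genes had 4 calls higher and 1 lower of 22. LOX3, a lipoxygenase of jasmonate synthesis, had 4.28, 4.17 and 4.65 CPM in psp1 roots and 0.117, 0.282 and 0.182 CPM in WT roots. LOX3 had 13.3, 4.3 and 13.1 CPM in psp1 aerial parts and 15.2, 11.8 and 11.4 CPM in WT aerial parts. Only WT roots stood close to 0, and the aerial groups overlapped (4.64 ± 0.66, adjusted p = 0.000492). The repressor JAZ6 had an interaction of 1.43 ± 0.22 (adjusted p = 0.00105) and the regulator MYC2, which overlaps a gene of the opposite strand over 3241 bases, of 1.18 ± 0.23, while the output gene VSP2, at -1.92 ± 0.37, was lower. The fourth call, TAT3, averaged under 10 counts in both genotypes of roots, so its root effect was not measured. Leaving out WT aerial library 1 or 2, WT root library 3 or psp1 root library 1 left 2 higher calls in this list. The call of MYC2 was kept only without psp1 root library 2, psp1 aerial library 3, or WT aerial library 3 when single libraries were left out (adjusted p otherwise 0.0118 to 0.0323). That of VSP2 was lost without WT root library 3, psp1 aerial library 1 or 3, or WT aerial library 1, 2 or 3 (adjusted p 0.0117 to 0.0182) and also in limma-voom (0.0222). Among 11 DNA damage genes, GMI1, induced by double-strand breaks, had 47.2, 44.1 and 41.6 CPM in psp1 roots and 8.34, 13.4 and 8.45 CPM in WT roots. GMI1 had 11.3, 15.0 and 13.1 CPM in psp1 aerial parts and 13.5, 13.3 and 12.6 CPM in WT aerial parts (2.15 ± 0.31, adjusted p = 0.000497). The model also called NAC044, a factor of the same response, with 53.3, 52.2 and 35.8 CPM in psp1 roots and 1.53, 1.22 and 1.27 CPM in WT roots. It averaged under 10 counts in both genotypes of the aerial part, so no aerial effect was measured and NAC044 shows a root difference alone.

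Genes of carbon starvation formed the list with the most calls of a lower effect in roots: 6 of 18 were called lower and none higher, and the median was -0.757. KMD4, an F-box protein gene, had 24.0, 25.3 and 24.8 CPM in psp1 roots and 61.9, 70.3 and 56.8 CPM in WT roots. KMD4 had 304, 291 and 336 CPM in psp1 aerial parts and 385, 310.3 and 361 CPM in WT aerial parts (-1.17 ± 0.18, adjusted p = 0.000976). BGAL4 (-1.06 ± 0.18), DIN10, a raffinose synthase family gene induced in the dark (-1.28 ± 0.22), IVD and BCAT2 of branched-chain amino acid breakdown (-1.1 ± 0.19 and -1.61 ± 0.31) and TPS8, a class II trehalose phosphate synthase (-0.75 ± 0.16), were the others. DIN10 had 245, 225 and 366 CPM in psp1 roots and 1032, 995 and 898 CPM in WT roots. DIN10 had 1861, 1744 and 1548 CPM in psp1 aerial parts and 2504, 2616 and 2318 CPM in WT aerial parts, so that the psp1 libraries were below WT in both organs and further below it in roots. The number of calls was 2 without WT aerial library 2 and 3 without WT aerial library 3. The call of BGAL4, which overlaps a gene of the opposite strand over 909 bases, was lost without WT aerial library 2 (adjusted p = 0.0113). That of IVD was lost without WT aerial library 2 or 3 (adjusted p 0.01 to 0.0113). That of BCAT2 was lost without psp1 aerial library 1, or WT aerial library 1, 2 or 3 (adjusted p 0.0124 to 0.0213). That of TPS8 was lost without psp1 root library 1, psp1 aerial library 1, 2 or 3, or WT aerial library 1, 2 or 3 (adjusted p 0.01 to 0.0295) and also with no filter (0.0114).

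Several genes with the smallest p or the largest interaction belonged to no list. EMB1030, an alanyl-tRNA synthetase (AT5G22800; TAIR10.1 chromosome 5, 7615747 to 7620278), had 86.8, 84.0 and 93.7 CPM in psp1 roots and 14, 12.6 and 14.4 CPM in WT roots. EMB1030 had 182, 164 and 153 CPM in psp1 aerial parts and 196, 176 and 178 CPM in WT aerial parts. WT roots alone stood low, and its interaction of 2.83 ± 0.18 had the smallest adjusted p of all (9.94e-08). AT2G39980, an acyltransferase family gene that overlaps a gene of the opposite strand over 532 bases, had 21.3, 22.8 and 16.5 CPM in psp1 roots and 3.99, 3.1 and 2.64 CPM in WT roots. AT2G39980 had 35.5, 39.9 and 41.0 CPM in psp1 aerial parts and 69.2, 66.1 and 62.0 CPM in WT aerial parts (3.41 ± 0.27, adjusted p = 8.94e-07). BCA3, a beta carbonic anhydrase, had 16.0, 16.7 and 20.5 CPM in psp1 roots and 0.352, 0.564 and 0.182 CPM in WT roots (4.18 ± 0.66, adjusted p = 0.00105). Its counts were 3, 6 and 2 in WT roots. In the aerial part they were 42, 9 and 18 in psp1 and 22, 10 and 12 in WT, so the size of its interaction is poorly fixed. GA2OX2, which inactivates gibberellins, had 13.1, 15.2 and 27.7 CPM in psp1 roots and 4.70, 3.19 and 1.73 CPM in WT roots and stayed below 3 CPM in the aerial part. Its call (4.21 ± 0.74) was lost without WT aerial library 2 (adjusted p = 0.0128) and also in limma-voom (0.0208).

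On the falling side, CYP81D11, a cytochrome P450, had 38.1, 33.0 and 25.9 CPM in psp1 roots and 181, 164 and 209 CPM in WT roots. CYP81D11 had 78.0, 66.0 and 82.0 CPM in psp1 aerial parts and 71.1, 60.0 and 63.6 CPM in WT aerial parts (-2.72 ± 0.22, adjusted p = 9.18e-07). AT5G61590, an ERF-type DNA-binding protein gene, had 21.7, 17.0 and 12.6 CPM in psp1 roots and 148, 104 and 149.7 CPM in WT roots. AT5G61590 had 79.4, 86.2 and 109 CPM in psp1 aerial parts and 117, 98.4 and 84.9 CPM in WT aerial parts (-2.82 ± 0.28, adjusted p = 9.81e-06). In both genes the root libraries were apart and the aerial ones overlapped. AT5G15150, the homeobox gene annotated as homeobox 3, had 4.28, 4.33 and 3.68 CPM in psp1 roots and 37.6, 37.1 and 37.8 CPM in WT roots (-3.98 ± 0.52, adjusted p = 0.000254). Its aerial counts were 42, 8 and 7 in psp1 and 21, 14 and 17 in WT, so its aerial effect rests on few and uneven counts. AT4G32340 (-3.62 ± 0.75) and AT1G49200 (-3.11 ± 0.54) had large negative values from few root counts. The call of AT4G32340 was kept only without psp1 root library 1, WT root library 1, or psp1 aerial library 3 when single libraries were left out (adjusted p otherwise 0.012 to 0.0273), and was lost in limma-voom (0.0208) and at equal depth (0.0158). That of AT1G49200, which has copies of 90.8% and 90.2% identity, was lost without psp1 root library 1 (adjusted p = 0.0123) and also in limma-voom (0.0173).

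Interactions with a called effect in the aerial part alone were few. By size, the absolute effect was larger in the aerial part in 24 of the 153 genes called higher and in 16 of the 162 called lower. Besides PSP1 and GSTF2, 6 genes were called up in the aerial part alone, among them CYP71B23 (-1.89 ± 0.24), which was named after its values were seen. TIP2;2, a vacuolar aquaporin, fell in the aerial part, with 54.5, 54.8 and 73.2 CPM in psp1 roots and 41.5, 33.3 and 41.2 CPM in WT roots. TIP2;2 had 16.3, 13.5 and 9.63 CPM in psp1 aerial parts and 31.6, 27.6 and 28.3 CPM in WT aerial parts (1.78 ± 0.27, adjusted p = 0.000896). Its relative TIP2;1 fell in both organs and more in roots, with 12.3, 11.2 and 15.3 CPM in psp1 roots and 68.5, 49.6 and 64.0 CPM in WT roots. TIP2;1 had 258, 268 and 323 CPM in psp1 aerial parts and 589, 578 and 463 CPM in WT aerial parts (-1.29 ± 0.23, adjusted p = 0.00246; 0.0175 in limma-voom). Of 22 aquaporins 2 were called higher, TIP2;2 and PIP1;4, and 1 lower. The call of PIP1;4 was lost without psp1 root library 1, 2 or 3, WT root library 1, 2 or 3, or WT aerial library 1 or 2 (adjusted p 0.0141 to 0.0316). LHCB3, a light-harvesting protein and 1 of the leaf markers, was the single call of 32 photosynthesis genes (-0.88 ± 0.18). It was lower in psp1 in both organs, as the summed leaf markers were. Its call was kept only without psp1 root library 3, or WT root library 1 or 2 when single libraries were left out (adjusted p otherwise 0.0101 to 0.031). AT1G80380, annotated as a glycerate kinase in the photorespiration list, was the single call of 21 there, with 54.7, 54.0 and 58.1 CPM in psp1 roots and 113, 125 and 121 CPM in WT roots (-0.92 ± 0.16; adjusted p 0.0110 to 0.0114 without WT aerial library 2 or 3).

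Several lists held no interaction past the threshold in edgeR. These were salicylic acid defence (19 genes tested), cell division (23), the circadian clock (12), alternative respiration (8), heat shock (6), Casparian strip and suberin (21) and root hairs (10), besides those of sulfate, tryptophan and myrosinases given above. In that order, 14, 21, 10, 5, 5, 10 and 2 had a mean of at least 10 counts in at least 1 genotype of each organ. The same held for 17 of 18 sulfate reduction and cysteine synthesis genes and 6 of 7 other sulfate transporters. It also held for 10 of 10 tryptophan genes and 6 of 11 myrosinase and specifier genes. For the rest, the effect in at least 1 organ rests on few counts, so a missing call says little. Of the 145 genes in these 11 lists, 38 had an unadjusted p under 0.05, DESeq2 called 7 and limma-voom called 1. Over all 18759 genes tested, the same counts were 3704, 828 and 255. A gene that was not called may still differ between organs. Of the 540 loci in the lists, 490 were tested; 74 of the 315 called genes were in a list and 241 were not.

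**Figure D5:**
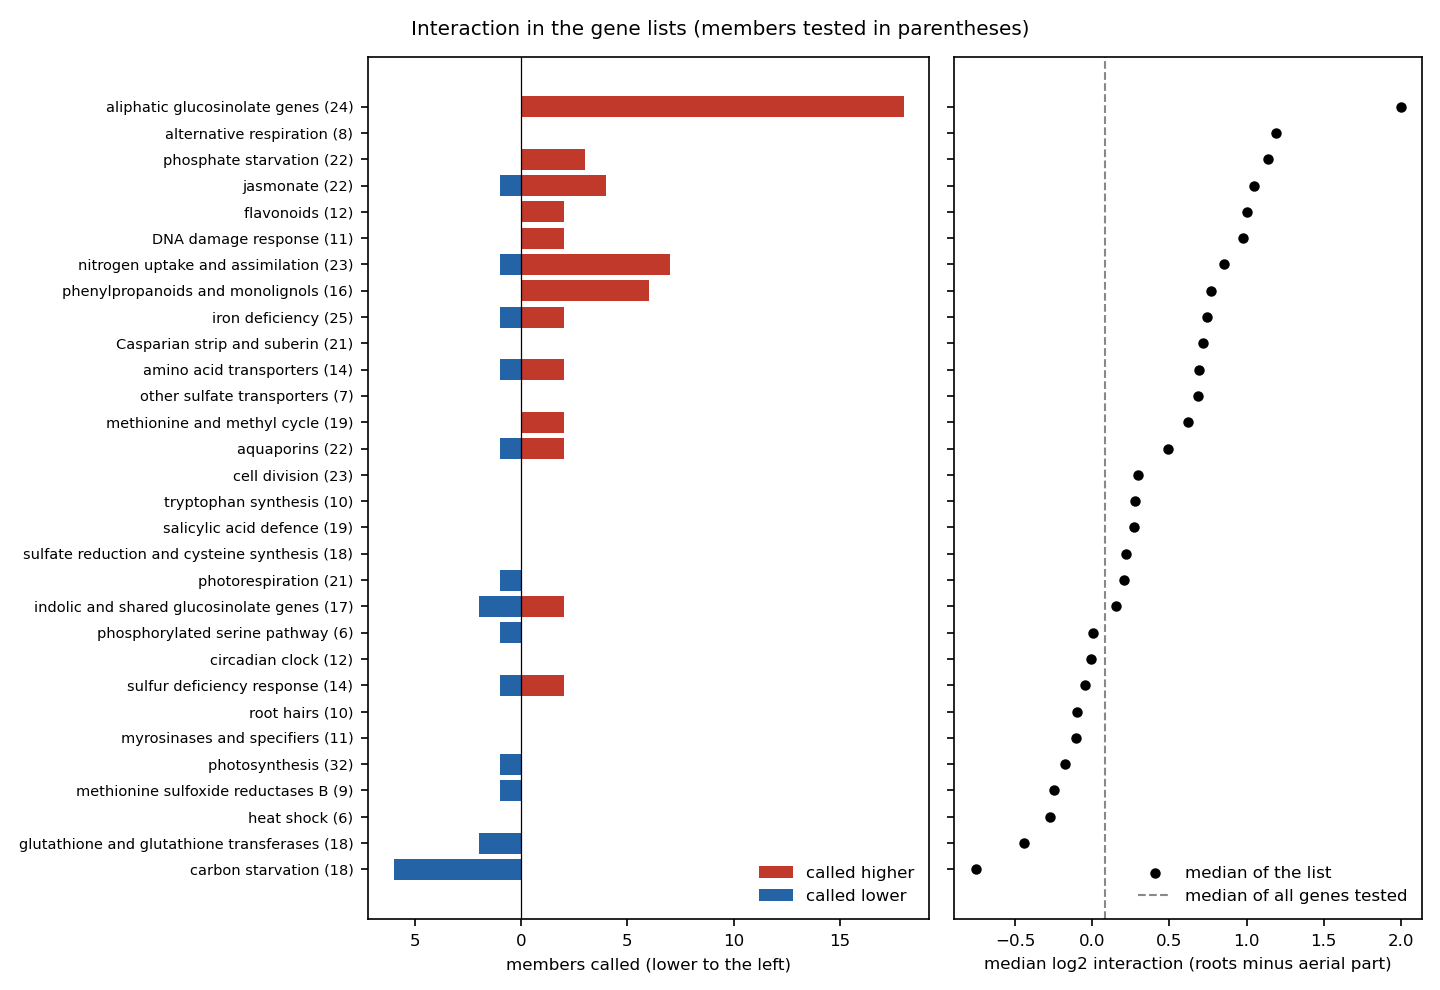
Left, the number of members of each gene list whose interaction was called higher (red) or lower (blue), with the number of members tested in parentheses; right, the list's median log2 interaction (points) and the median over all genes tested (dashed line, 0.083). Aliphatic glucosinolate genes reach 18 calls and a median of 2.00, and carbon starvation genes 6 calls lower and a median of -0.757.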

How the data were processed

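Poly(A)-enriched RNA from 12 samples was read as single SOLiD reads of the 5500XL system, per the labels' protocols. The authors ran kallisto 0.43.0 against TAIR10 transcripts, which gave each gene an estimated count and a TPM value, per the labels and the file headers. Their own tests were run with edgeR in R 3.3.2 at the 1% level, per the submitters' processing notes and protocols. Whether counting used strand is not given in the sources used here.

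From the deposited estimated counts, rounded to whole numbers, 18759 of 27416 genes were kept by edgeR's expression filter over the 4 groups. A quasi-likelihood model with TMM scaling was fitted to all 12 libraries (edgeR 4.0.16, R 4.3.3), and the interaction contrast and the effect in each organ were called at a Benjamini-Hochberg adjusted p under 0.01 over all genes tested. CPM are counts scaled by TMM library sizes; ± after an interaction is its SE. TPM were used for marker sums alone. DESeq2 1.42.0 and limma 3.58.1 gave alternatives, and near copies were found with blastn 2.17.0. In the quasi-likelihood model, a p-value sets a contrast against the spread between replicate libraries, estimated over the 4 groups together.

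The files give 1 model per gene, with coding lengths. Of the loci, 97.5% matched RefSeq TAIR10.1, which supplied coordinates and upstream sequence. Overlaps between genes are those of whole annotated gene spans, and overlap of coding sequence was not measured. Named genes were up to 4 per direction with the smallest p, up to 4 per direction with the largest change, up to 4 of each kind called in opposite directions in the organs, up to 2 called genes per list, and the genes of the serine pathway; other genes were named after their values were seen. The members and gene lists were chosen with earlier results of these data known. No sample and no column of sample values was left out.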

Additional observations from a re-analysis of the deposited data

Results flagged for a closer look

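Of the 315 genes called for the interaction, the 46 picked by the rule for naming genes are listed here. In each, the effect of psp1 in roots differed from that in the aerial part by the interaction term itself, at an adjusted p under 0.01 over all genes (edgeR quasi-likelihood test). Across 23 alternative fits at 0.01, 30 of the 46 were called in all and 16 were not called in at least 1. The values are log2 root effects minus log2 aerial effects. A higher effect in roots was found for EMB1030 (2.83), G3Pp1 (2.77), AT2G39980 (3.41), AK3 (2.63), BCAT4 (2.69), SULTR2;1 (2.23), GLN1;2 (2.64), IMD1 (2.41) and NRT1.1 (1.82). The same direction held for AAP1 (2.62), MS2 (1.75), PAL1 (1.45), 4CL1 (1.47), LOX3 (4.64), OPT3 (1.71), GMI1 (2.15), PHT1;4 (2.17) and TIP2;2 (1.78). Further genes with a higher psp1 effect in roots were UMAMIT36 (4.21), JAZ6 (1.43), BCA3 (4.18), APR2 (0.96), GA2OX2 (4.21), MAT3 (0.90), SUR1 (1.25), F3H (2.14) and FLS1 (2.3). A lower effect in roots was found for CYP81D11 (-2.72), THA1 (-5.11), PSP1 (-2.60), AT5G61590 (-2.82), AT5G15150 (-3.98), AT1G65970 (-2.07), IGMT1 (-1.58) and GSTU19 (-2.43). Also lower were KMD4 (-1.17), UMAMIT20 (-2.00), BGAL4 (-1.06), AT1G49200 (-3.11), TIP2;1 (-1.29), AT1G80380 (-0.92), MSRB5 (-1.88) and GSTF2 (-0.94). The remaining genes with a lower effect were LHCB3 (-0.88), AT4G32340 (-3.62) and FER4 (-1.54). No group of 3 libraries was tested for single outlying samples.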

How the results depend on the processing

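The interaction count was 315 as reported, 828 with DESeq2 (331 higher, 497 lower) and 936 at an adjusted p under 0.05 (489 higher, 447 lower). With a stricter filter 255 genes were lower. Calls in roots numbered 1832 as reported and 3431 at 0.05, and calls in the aerial part 141 as reported, 556 with DESeq2, 606 at 0.05 and 244 with no filter. Fits that each left out 1 library gave 136 to 374 interactions (81 to 181 higher, 55 to 241 lower), 1063 to 2227 calls in roots and 40 to 198 in the aerial part. RLE scaling gave 143 higher and 234 lower, and scaling by library totals 150 and 196, with a median root effect of 0.116. The cause of these shifts was not tested.

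Residual correlations left it unsettled whether replicate numbers pair the samples. The 12 same-number pairs of libraries had -0.049 to 0.150, 2 of them over 0.1, and other pairs -0.134 to 0.098. Between roots and aerial parts of 1 genotype, same-number pairs had 0.027, 0.111 and 0.150 in WT and 0.029, 0.021 and 0.044 in psp1. Pairs of other numbers there ran from -0.134 to 0.023 in WT and from -0.056 to 0.043 in psp1. With the number as a replicate block the interaction count was 281 over all groups and 291 within genotype, with 1601 and 110 calls in roots and the aerial part under the first. Among the genes named, a block fit ended the calls of VSP2, FER4, TPS8, CYP79F1, GSTF2, PIP1;4, LHCB3, AT4G32340, GLT1, FMOGS-OX5, UGT74B1, FRO2 and TAT3, with adjusted p of 0.0101 to 0.0195.

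Over 2389 gene values under alternatives, 2143 kept direction and call, 241 lost the call and 1, of SDI1, gained it. Another 4 changed sign, all in genes that were not called. Without 1 library APR1 ran from -0.0374 to 0.323, PAP17 from -0.0716 to 0.366 and PSAT2 from -0.033 to 1.3. Across 23 alternatives at 0.01, 110 genes were called in all. Depth was lower in every psp1 library than in WT of the same organ, and at equal depth 291 interactions were called.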
